A study of Arabidopsis thaliana with 12 samples.

Results

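The 4 genes described here, AT1G64510, AT3G13120, AT3G54210 and AT4G01310, encode proteins of the plastid ribosome. They are known as ribosomal proteins S6 and S10 of the small subunit and L17 and L5 of the large subunit. They were chosen by locus, as probes that the array's annotation ties to 1 gene and that were above 0 in all 12 samples. AT1G29070, another plastid ribosomal protein gene (L34), meets the same conditions but was not among the 4 loci, and its values, of opposite sign, are given after theirs. The array table has 3439 probes, of which 692 carry 1 annotated gene and 633 of these were above 0 in every sample. The deposited table and the gene tables used here give loci without protein names, so the protein names are background.

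All samples were total RNA of wild-type Arabidopsis thaliana, a small flowering plant, of the Landsberg ecotype. Every plant had received 500 µM bromoxynil, a herbicide of the nitrile class, which stops photosynthetic electron flow by acting on photosystem II. The dark group (n = 6) was kept for 12 h in darkness, and the light group (n = 6) had 30 min of light after a dark period of 12 h. The study set light against dark in herbicide-treated plants, soon after the dark period had ended. Plants without bromoxynil were not analysed here, so a value describes light and dark within treated plants. The labels name no organ and do not say whether samples of a group came from separate plants. The p-values therefore describe only how far these samples spread, and that spread may be technical.

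Plastids make part of their own proteins, including core subunits of both photosystems, on a ribosome of bacterial type. Its RNAs and some of its proteins are encoded in the plastid genome, while the other proteins, including these 4, are encoded in the nucleus and imported after synthesis in the cytosol. In bacteria, S6 lies on the platform of the small subunit, and S10 lies in its head and also takes part in transcription antitermination. Bacterial L17 lies near the exit of the tunnel through which the new protein leaves, and L5 binds the smallest ribosomal RNA in the central protuberance of the large subunit.

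The deposited values are relative intensities on a linear scale, and light 1 and light 2 were on another scale than the rest. Their median intensities over all probes were 3.88 and 3.90, against 0.559 to 0.583 in light 3 to 6 and 0.624 to 0.654 in the dark samples. Light 3 to 6 thus had lower medians than the dark samples, relative to a brightest spot of 100 in each of these. Whether the arrays themselves were dimmer cannot be read from relative values. The deposited intensities of the genes below carry both differences, so their light and dark ranges are not on 1 scale. Intensities were therefore compared after log2 and quantile normalisation, which gives each sample the same distribution of values. Samples 1 and 2, 3 and 4, and 5 and 6 of a group resembled each other: over probes above 0 in every sample, 12 of 12 samples correlated best with this partner in their group. Whether partners are repeat measurements of the same RNA is not stated, so the difference of each gene is also given with the partners as a random block.

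None of the 4 genes was called different between light and dark after adjustment over all probes. In the limma fit over 3381 probes, 0 of 4 had an adjusted p under 0.05, where 2.84% of all probes had one. At an unadjusted p under 0.05 the count in this fit, which uses no pairing, was also 0 of 4, beside 18.9% of all probes. An exact permutation test over all 924 assignments of the samples to 6 and 6 called 0 of 4 after adjustment over all probes, beside 4.55% of all probes, but took partners as independent samples. With partners as a random block the count at an adjusted p under 0.05 was 0 of 4, beside 0.473% of all probes. With the sample number as a block it was 0 of 4, beside 3.43%, though S6 then had an unadjusted limma p of 0.0293 (adjusted p 0.154). The 4 estimates were above 0, with a median log2 change of 0.17 against 0.02 over all tested probes, and 52.4% of all probes had an estimate above 0. The smallest change that passed the threshold anywhere on the array was 0.31, and S6 alone among the 4 had an estimate above that size. In such bulk RNA, fewer cells of a type and less of a transcript per cell cannot be told apart.

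**Figure D1:**
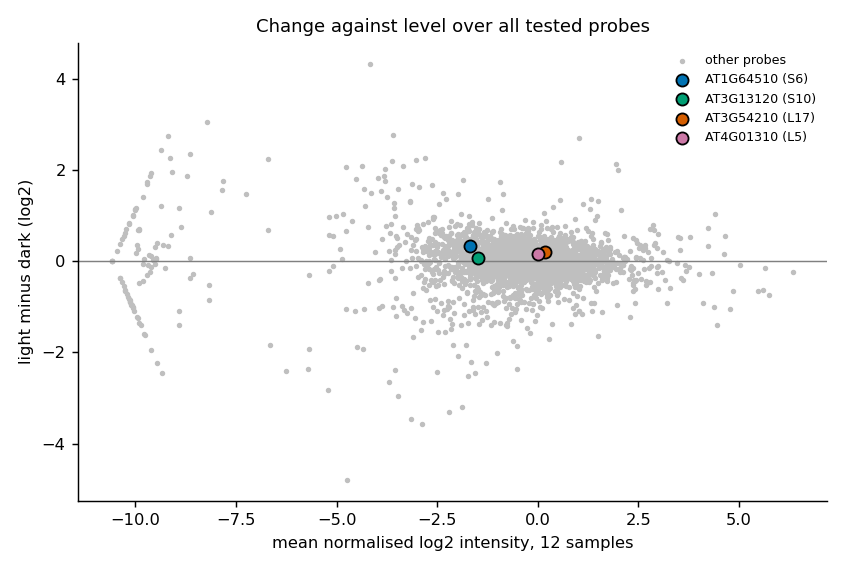
Light minus dark difference (log2, vertical axis) against mean normalised log2 intensity over the 12 samples (horizontal axis) for all 3381 tested probes, with the 4 ribosomal protein probes in colour. The 4 lie inside the cloud of probes, with changes of 0.34, 0.08, 0.20 and 0.15, and 1022 probes had a change of larger size than S6.

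AT1G64510, the gene of the small subunit protein S6, had a dim probe. Its deposited intensity in the dark ran from 0.163 through a median of 0.252 to 0.286, and in light from 0.159 through a median of 0.234 to 2.06. The values of 2.06 and 1.99 belonged to light 1 and light 2, and the other 4 light samples did not exceed 0.237, which is inside the dark range. Ranked among the probes of the same sample, which needs no scaling, S6 stood at the 13.7 ± 3.85 percentile in the dark and at the 18 ± 5.44 percentile in light (SD, n = 6 each). On the normalised log2 scale the dark samples ran from -2.47 through a median of -1.69 to -1.47, and the light samples from -2.08 through a median of -1.58 to -1.09. Light 1 and light 2 lay above all 6 dark samples, and the other 4 light samples lay within the dark range, so the groups overlapped.

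The mean of S6 was -1.85 ± 0.40 in the dark and -1.51 ± 0.37 in light (SD, n = 6 each). The difference of 0.34 ± 0.21 (log2, SE) was 1.26-fold, with a 95% confidence interval from 0.914-fold to 1.74-fold (limma adjusted p 0.412). The exact permutation test, two-sided, gave p 0.165, or 0.469 adjusted over all probes. With partners as a random block the interval ran from 0.851-fold to 1.87-fold (limma adjusted p 0.759). The difference was 0.13 without light 1 and light 2, 0.21 without dark 5, 0.20 with samples weighted by their agreement and 0.19 with a pseudocount, with adjusted p of 0.768 in the first of these. With the sample number as a block the unadjusted p of S6 was 0.0293 and the limma adjusted p 0.154.

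AT3G13120 encodes S10 of the same subunit and also had a dim probe. Its deposited intensity ran from 0.220 through a median of 0.279 to 0.342 in the dark. In light it ran from 0.220 through a median of 0.270 to 1.79, where 1.79 and 1.26 were light 2 and light 1. The other 4 light samples reached at most 0.273, below the highest dark sample. Its percentile within the sample was 17.2 ± 3.45 in the dark and 18.3 ± 2.83 in light (SD, n = 6 each). Normalised log2 values ran from -1.84 through -1.53 to -1.22 in the dark and from -1.69 through -1.39 to -1.26 in light, given as lowest, median and highest. The whole light range thus lay inside the dark range.

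The difference for S10 was 0.08 ± 0.12 (log2, SE), between means of -1.53 ± 0.23 in the dark and -1.45 ± 0.18 in light (SD, n = 6 each). This was 1.06-fold, with a 95% interval from 0.877-fold to 1.28-fold (limma adjusted p 0.768), or from 0.804-fold to 1.39-fold with the random block (limma adjusted p 0.961). The exact permutation test, two-sided, gave p 0.50, or 0.774 adjusted over all probes. The sign depended on the scaling, since median centring in place of quantile normalisation gave -0.01. The difference was 0.21 without numbers 1 and 2 of both groups, and 0.02 to 0.14 over the 12 fits that each lacked 1 sample.

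**Figure D2:**
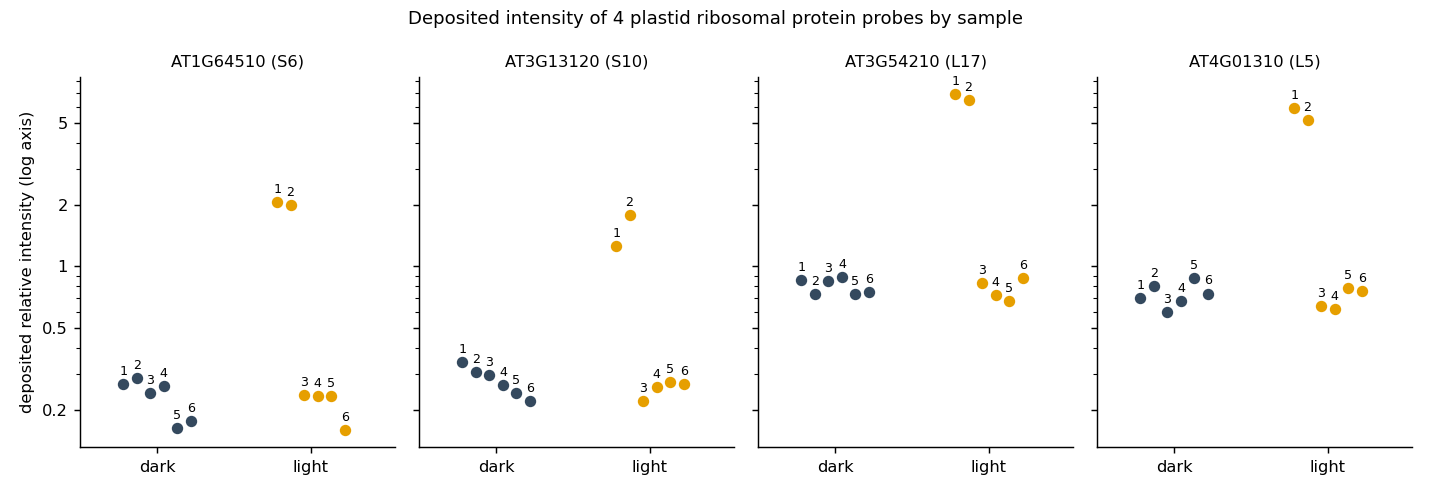
Deposited relative intensity (log axis) of the 4 probes in the 6 dark and 6 light samples, with the sample number beside each point. Light 1 and light 2 stand above the other 10 samples in all 4 panels, for example at 6.95 and 6.46 for L17 against 0.677 to 0.885 elsewhere, and their medians over all probes are raised too.

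AT3G54210 encodes L17 of the large subunit and had a probe above the middle of the array. Deposited intensities ran from 0.730 through a median of 0.798 to 0.885 in the dark, and from 0.677 through a median of 0.853 to 6.95 in light. Leaving aside light 1 and light 2, the light samples ran from 0.677 to 0.878 and overlapped the dark samples. L17 stood at the 61.1 ± 4.11 percentile of its sample in the dark and at 67.9 ± 7.44 in light (SD, n = 6 each). The normalised log2 values were -0.07, 0.08 and 0.20 in the dark and -0.01, 0.30 and 0.53 in light, as lowest, median and highest. Light 1, 2, 3 and 6 lay above all dark samples, whereas light 4 and light 5 lay among them.

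L17 had the lowest p of the 4 genes in the fit without a block, whereas S6 had it with the sample number as a block or with partners as a random block. Its mean was 0.07 ± 0.11 in the dark and 0.27 ± 0.21 in light (SD, n = 6 each), a difference of 0.20 ± 0.11 (log2, SE; limma adjusted p 0.343). This was 1.15-fold with a 95% interval from 0.976-fold to 1.34-fold, and from 0.889-fold to 1.47-fold with the random block (limma adjusted p 0.799). The exact permutation test, two-sided, gave p 0.0779, or 0.316 adjusted over all probes. The difference fell to 0.09 without light 1 and light 2, to 0.08 without numbers 1 and 2, and to 0.07 with sample weights. It was 0.24 with median centring (unadjusted p 0.0482), 0.25 without light 5 (unadjusted p 0.030) and 0.24 without light 4 (unadjusted p 0.0491), where the limma adjusted p was 0.225 to 0.267.

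AT4G01310 encodes L5 and lay near the middle of the array. Its deposited intensity ran from 0.600 through a median of 0.721 to 0.878 in the dark and from 0.619 through a median of 0.772 to 5.93 in light. Without light 1 and light 2, which had 5.93 and 5.20, the highest light sample had 0.789 and lay inside the dark range. The percentile within the sample was 55.8 ± 7.94 in the dark and 61.2 ± 6.54 in light (SD, n = 6 each). On the normalised log2 scale the lowest, median and highest values were -0.39, -0.08 and 0.25 in the dark and -0.16, 0.12 and 0.29 in light. Light 1 alone lay above the highest dark sample, dark 5.

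The difference for L5 was 0.15 ± 0.12 (log2, SE; limma adjusted p 0.535), from a dark mean of -0.07 ± 0.22 to a light mean of 0.08 ± 0.18 (SD, n = 6 each). It was 1.11-fold, with a 95% interval from 0.924-fold to 1.33-fold, and from 0.864-fold to 1.43-fold with the random block (limma adjusted p 0.873). The exact permutation test, two-sided, gave p 0.227, or 0.547 adjusted over all probes. The difference was 0.09 without light 1 and light 2, 0.10 without numbers 1 and 2, and 0.09 without dark 3.

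**Figure D3:**
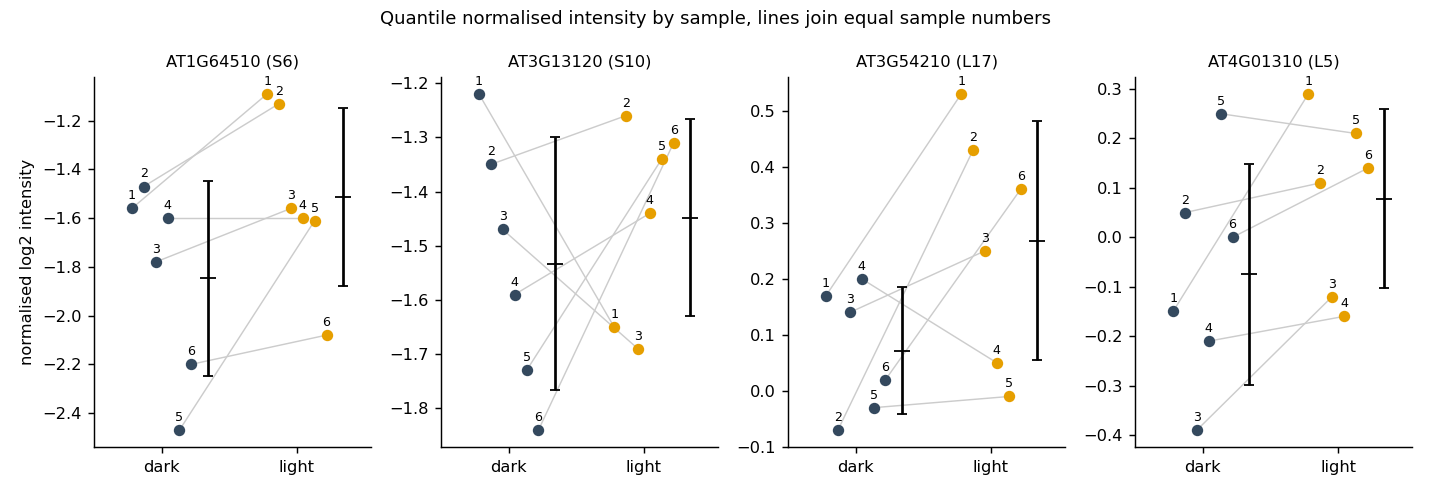
Quantile normalised log2 intensity of each gene by sample, with grey lines joining dark and light samples of equal number and black marks for the mean and SD of each group of 6. The groups overlap in all 4 panels, and the vertical axes differ between panels.

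The sample numbers tie dark to light samples in the data: across all probes, the deviations from the group means of same-numbered samples correlated at 0.337 to 0.491. Taken by number, S6 was higher in light in 5 of 6, S10 in 4 of 6, L17 in 5 of 6 and L5 in 5 of 6. For none of the 4 did all numbers have the same direction. Light was higher in all 6 numbers or in none of them for 23.0% of all probes, where ties, as between values of 0, counted as not higher. S6 had its largest difference, 0.86, in number 5, where the dark sample was the lowest of all 12. S10 had -0.43 in number 1 and 0.53 in number 6, the widest range among the 4. L17 ranged from -0.14 in number 4 to 0.51 in number 2. L5 ranged from -0.04 in number 5 to 0.44 in number 1.

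**Figure D4:**
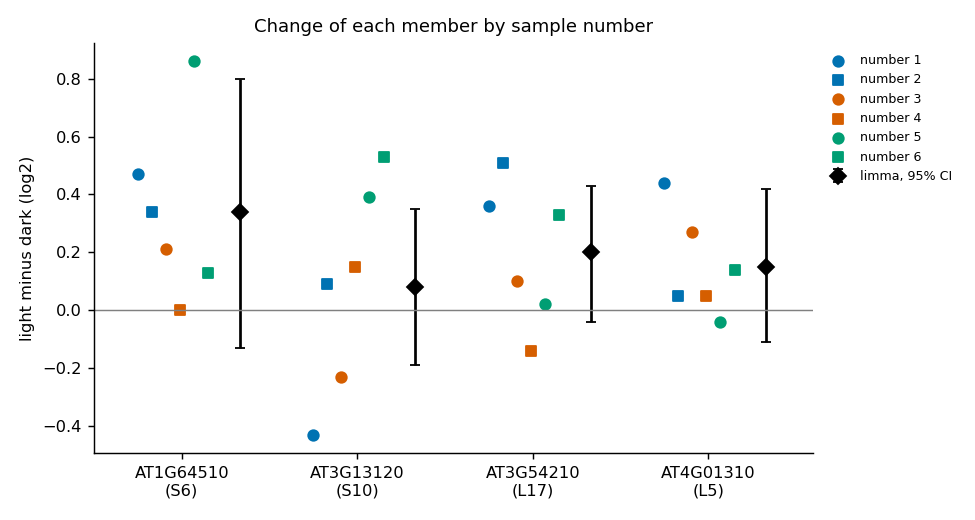
Light minus dark difference (log2) of each gene in sample numbers 1 to 6, where one colour marks the partners of a pair, beside the limma estimate with its 95% confidence interval. All 4 intervals include 0, and S10 runs from -0.43 to 0.53.

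Averaged over partners, the 3 pairs placed the genes differently. In numbers 1 and 2 the differences were 0.41 for S6, 0.43 for L17 and 0.25 for L5, while S10 had -0.17. In numbers 3 and 4 they were 0.11 for S6, -0.04 for S10, -0.02 for L17 and 0.16 for L5. In numbers 5 and 6 they were 0.49 for S6, 0.46 for S10, 0.17 for L17 and 0.05 for L5. No pair of numbers held the largest difference of all 4 genes, and the mean of S6 in the last pair joins 0.86 in number 5 with 0.13 in number 6.

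Within a group the genes also differed between pairs. The dark pair means of S6 were -1.51, -1.69 and -2.34, a range of 0.82 that exceeded its difference between light and dark. For S10 the dark pair means were -1.29, -1.53 and -1.78, a range of 0.50. For L17 the dark pair means ranged over 0.17 and the light pair means over 0.33. For L5 these ranges were 0.42 and 0.34, again above the difference between the groups. The mean gap between partners was 0.155 for L5, 0.167 for L17, 0.173 for S10 and 0.181 for S6 on the log2 scale.

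S6 was the most variable of the 4 genes. Its residual SD in the limma fit was 0.38, at the 65.3 percentile of all tested probes, whose median was 0.30. S10, L5 and L17 had residual SDs of 0.21, 0.20 and 0.17, at the 28, 26.5 and 16.2 percentiles. The intervals of these 3 genes are accordingly narrower, and their upper bounds lay at 1.28-fold, 1.33-fold and 1.34-fold.

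The log2 ratio of a pair of genes within a sample is free of any single factor applied to the whole sample. Light 1 and light 2 differ by more than a factor, since their medians were higher and their brightest spots, 48.2 and 47.6 against 100 in the other 10 samples, were lower, so the ratios do not remove their difference. The ratio itself depends on the probes, so its change is what can be read. S6 over L17 was -1.81 ± 0.29 in the dark and -1.82 ± 0.33 in light (SD, n = 6 each). L17 over L5 was 0.13 ± 0.30 in the dark and 0.19 ± 0.21 in light. S10 over L17 was -1.54 ± 0.21 in the dark and -1.79 ± 0.40 in light, with a change of -1.13 in number 1 and 0.29 in number 5. S6 over S10 was -0.28 ± 0.20 in the dark and -0.03 ± 0.49 in light, with a change of 1.08 in number 1 and -0.43 in number 6. In each of these 4 ratios the change between the group means was smaller than the larger of the SDs.

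None of the 4 genes was among the 3 probes most like another of them over the samples. Likeness was measured as the mean absolute difference between normalised log2 values over the 12 samples, each probe centred on its own mean, against 632 other single-gene probes above 0 in all samples. The measure is not scaled to the spread of a probe. Probes that vary little therefore score as alike even where they do not rise and fall together. S10 and L17 had the smallest difference of the 6 pairs, at 0.200, and L17 came at rank 119 among the probes ordered by likeness to S10. S6, the most variable gene, and L5 had the largest, at 0.372, which is above the median of 0.351 between S6 and all other probes. The other 5 pairs were more alike than the median for the first gene of the pair. S6 and S10 differed by 0.278, at rank 144 of the probes ordered by likeness to S6, and over the 10 samples without light 1 and light 2 by 0.210, at rank 62. Every other pair came further down the order over those 10 samples. In likeness to S6, L17 went from rank 132 to 232 and L5 from 362 to 467. In likeness to S10, L17 went from 119 to 138 and L5 from 225 to 252. In likeness to L17, L5 went from 209 to 366.

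The probes closest to S6 were those of AT3G56290, OTP85 and AT5G59400, at 0.141, 0.153 and 0.155. OTP85 is a pentatricopeptide repeat protein of organelle RNA editing. Closest to S10 were AT5G55570, AT4G07670 and AT5G56070, at 0.0915, 0.101 and 0.108. Closest to L17 were AT4G08630, AT5G06790 and AT2G37000, at 0.0915, 0.108 and 0.108. Closest to L5 were AT1G74470, AT3G26580 and AT2G44760, at 0.103, 0.106 and 0.111, of which AT1G74470 is the geranylgeranyl reductase that supplies the side chain of chlorophyll. Over the 10 samples without light 1 and light 2 the order changed. AT4G07670 was then the closest to S10, at 0.0634, and AT1G74470 was the second closest to L5, at 0.0995. For S6 and L17 the former nearest probes each came to rank 5, at 0.155 for AT3G56290 and 0.0916 for AT4G08630.

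Of 41 listed loci for nuclear-encoded plastid ribosomal proteins, 6 were on single-gene probes and 0 on probes with several genes. None of the 6 was called higher or lower by limma, beside 2.84% of all probes, and 1 had an unadjusted p under 0.05, a threshold that 18.9% of all probes passed. Their median log2 change was 0.12, against 0.02 over all tested probes. Apart from the 4 genes above, these were AT1G29070 and AT5G65220, known as L34 and L29 of the large subunit. Of 12 listed plastid translation factors and 20 listed loci of plastid transcription, 0 were on single-gene probes. A further 3 probes carry several genes with a listed translation factor among them, and 0 of the 3 were called.

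AT1G29070 (L34) had lower estimates in light, opposite in sign to the 4 genes. Its normalised log2 values ran from -1.65 through -1.12 to -1.04 in the dark and from -5.26 through -1.74 to -1.50 in light, as lowest, median and highest. Light 2 and light 1 had -5.26 and -3.87, and the other 4 light samples lay between -1.93 and -1.50. The difference was -1.39 ± 0.61 (log2, SE; unadjusted p 0.0431, limma adjusted p 0.246), with a 95% interval from -2.73 to -0.05, and it did not pass the test. With partners as a random block the unadjusted p was 0.0805 and the limma adjusted p 0.597. Without light 1 and light 2 the difference was -0.41 ± 0.14 (SE; limma unadjusted p 0.0176, adjusted p 0.167). With a pseudocount it was -0.61 (limma unadjusted p 0.0154, adjusted p 0.143). Without numbers 1 and 2 it was -0.35 ± 0.16 (SE; limma unadjusted p 0.0663, adjusted p 0.302). Taken by number, L34 was higher in light in 1 of 6. In deposited values L34 had 0.160 in light 1 and 0.0808 in light 2, below its dark range of 0.247 to 0.393. S6, S10, L17 and L5 had their highest deposited values in these samples, but those values carry the raised scale of light 1 and light 2. The deposited values are therefore no second contrast between L34 and the 4 genes. S10 in light 1, for example, had 1.26 deposited but -1.65 after normalisation, inside its dark range. AT5G65220 (L29) was listed at 0 in 11 samples and had 0.0111 in dark 4, so no fold is given.

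**Figure D5:**
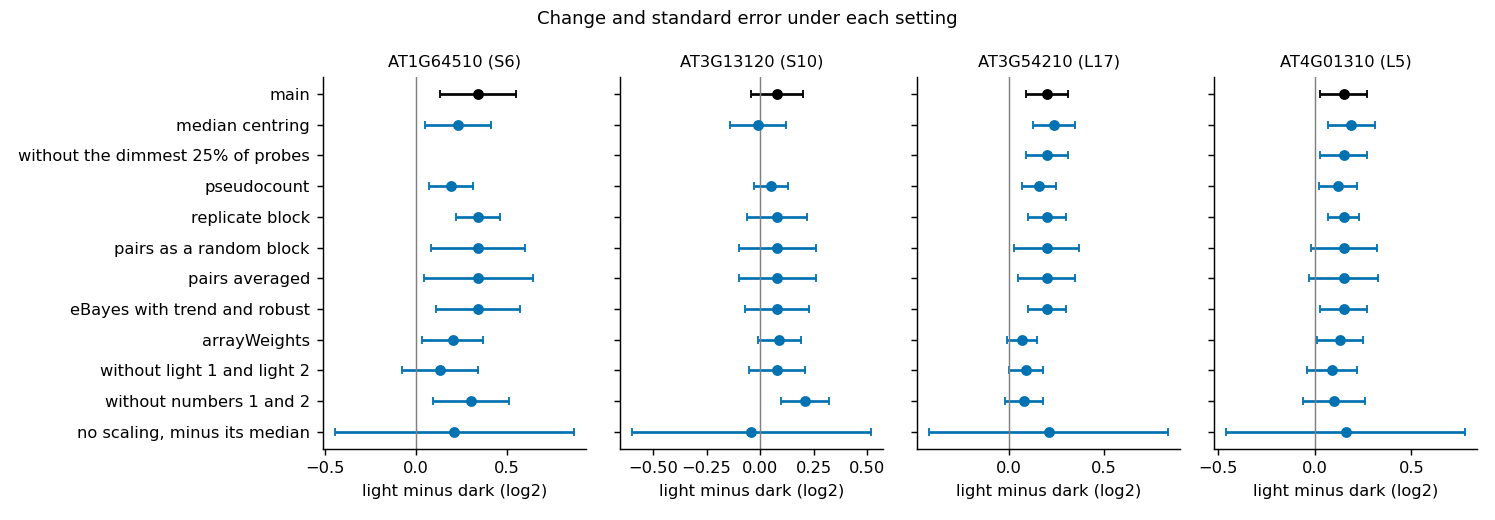
Light minus dark difference (log2) with its standard error for each gene under the main setting (black) and 11 alternatives (blue), where unscaled values are drawn relative to the median change of 0.78 over all probes. No setting gave an adjusted p under 0.05 for any of the 4, and S6 and S10 have no value where the dimmest 25% of probes were left out.

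Without any scaling the differences were 0.98 for S6, 0.74 for S10, 0.99 for L17 and 0.94 for L5, with a limma adjusted p of 0.426 for each. These values carry the scale of light 1 and light 2, since the median over all probes was 0.78. Relative to that median S10 lay at -0.04, S6 and L17 at 0.21 and L5 at 0.16. The SEs of 0.56 to 0.66 in this fit carry that scale too, so they do not measure the error of these relative values. Median centring, which centres each sample on its own median, gave 0.23 ± 0.18 for S6 and -0.01 ± 0.13 for S10 (log2, SE). It gave 0.24 ± 0.11 for L17 and 0.19 ± 0.12 for L5.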

How the data were processed

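The authors deposited 1 table of relative spot intensity on a linear scale for 12 samples with 1 channel each. None of the values is below 0, and the brightest spot is 100 in 10 samples. Scanner, background correction, scaling and genome build: not given in the sources used here. No coordinates are printed. Groups and numbers came from the sample titles. The sample medians differed by up to 6.98 times, above the limit of 1.25 at which quantile normalisation was to be used. It was applied to log2 values, with each 0 replaced by the smallest value above 0 in that sample. The 58 of 3439 probes at 0 in all samples were dropped. Light and dark were fitted with limma 3.58.1 (R 4.3.3) on the other 3381 probes without a covariate, using lmFit, eBayes, two-sided p-values and Benjamini-Hochberg adjustment, with calls under 0.05. Samples were left out after normalisation. The fit and the permutation test were tested on simulated data with 12 independent samples. In the real data the correlation within partner pairs, estimated by limma over all probes, was 0.669. The simulations therefore cannot show how either test behaves with such partners. Same-numbered samples of the groups correlated at 0.337 to 0.491 in their deviations, and 6 of 6 dark samples correlated best with the light sample of their number, so the numbers pair the samples. The main fit and the permutation test do not use this pairing, and no fit took both the pairing and the partners. With the sample number as a block the SE was 0.12 for S6, 0.14 for S10, 0.10 for L17 and 0.08 for L5. The limma adjusted p was then 0.154, 0.715, 0.270 and 0.283 in that order. Precision is limited by how many samples there are, and how far signals lay above background is unknown.

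The genes, lists and tests were chosen with earlier results of these data known. Named are the 4 genes and every listed plastid ribosomal, translation or transcription locus on a single-gene probe. The 3 probes with the smallest mean absolute difference to each of the 4 are named too. A search of RefSeq symbols and synonyms (TAIR10.1 gene table, names only) for other ribosomal proteins gave 44 loci, of which 0 were on single-gene probes. The settings tried besides were unscaled values, centring on the median, dropping the dimmest 25% of probes, a pseudocount of 0.223, the sample number as a block, partners as a random block or averaged, eBayes with trend and robust, arrayWeights, and fits that lacked some samples.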

Additional observations from a re-analysis of the deposited data

Results flagged for a closer look

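AT5G65220, the gene of plastid ribosomal protein L29, had a normalised log2 intensity of -7.26 in dark 4, far from the other 5 dark samples. In those it was listed at 0 and set to the floor, so any value above 0 would have stood apart and no chance rate applies. None of the other 10 groups of 6 values that were checked for plastid ribosomal protein genes held a single sample flagged in this way. The check sets the gap next to the most extreme sample against the range, so it can miss 2 samples that stand apart together. L34 in light had -5.26 in light 2 and -3.87 in light 1, against -1.93 to -1.50 in the other 4. Its gap was only 0.37 of the range.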

How the results depend on the processing

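None of the 4 genes was called under any alternative, and their adjusted p was 0.154 or higher in all of them. S6, L17 and L5 kept a positive sign in every alternative that gave a value, and S10 in 22 of 23. With median centring S10 had -0.01. These counts include the unscaled values, whose positive signs carry a median of 0.78 over all probes, and relative to it S10 lay at -0.04. They also include the 12 fits that each lacked 1 sample, which share most of their samples, so the counts are not independent checks. Leaving out each sample in turn gave 0.21 to 0.45 for S6, 0.02 to 0.14 for S10, 0.14 to 0.25 for L17, 0.09 to 0.22 for L5, -1.61 to -0.86 for AT1G29070 and -0.66 to 0.00 for AT5G65220, whose value of 0.00 without dark 4 leaves it at 0 in every sample. With the filter on dim probes S6, S10, AT1G29070 and AT5G65220 had no value. With the sample number as a replicate block 116 probes were called against 96 without it, and no call on the 4 genes changed. The number of called probes was 2 without scaling, 16 with the random block, 1 with pairs averaged, 174 with arrayWeights, 47 without numbers 1 and 2 with a replicate block, a setting added after the data were seen, and 46 to 86 when each sample was left out. With 1 sample left out the lowest counts came without dark 3 (46), dark 4 (57), light 5 (60) and light 6 (58). The count did not fall with every loss of samples. It was 99 without light 1 and light 2, and 109 without numbers 1 and 2. Fits on averaged pairs or on fewer samples have fewer degrees of freedom, but why the counts differed between settings was not tested. The dim probes of S6 and S10, between the 8.25 and 24.9 percentile of their samples, cannot be set against a background, which the table does not give.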
